A study of Mus musculus with 8 samples.

Results

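Glutathione S-transferases were examined in RNA sequencing of J774A.1 cells, a mouse macrophage cell line. The set holds 10 genes of the family, chosen by gene symbol, among the 55487 genes of the table: Gstp1, Gstp2, Gstm1, Gsta4, Gsto1, Gstk1, Gstz1, Mgst1, Mgst2 and Mgst3. One group of 4 libraries came from cells given LPS (1 μg/mL), a molecule of the bacterial outer membrane that macrophages respond to, for 24 h. The other group of 4 libraries came from cells given the same LPS together with UDCA (1 mM), ursodeoxycholic acid, a bile acid. Both groups therefore carry LPS, all libraries come from 1 cell line, and cells without LPS or with UDCA alone were not analysed here. The comparison addresses how UDCA alters the RNA of cells that are under LPS.

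Glutathione S-transferases join the tripeptide glutathione to electrophilic compounds, among them products of lipid peroxidation and many drugs. The conjugates are pumped out of the cell and trimmed to mercapturates. The soluble enzymes are sorted into classes named by Greek letters (alpha, mu, pi, theta, omega, zeta and others). The Mgst enzymes sit in membranes and belong to a separate family that also contains enzymes of leukotriene and prostaglandin synthesis. In macrophages the family therefore touches both defence against oxidants and the making of lipid mediators.

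The deposited values are TPM, which correct the reads of a gene for its length and for the size of the library, so levels of different genes can be set side by side. TPM keeps no read number, so the depth of each library is not known here and errors are standard deviations over libraries. The columns summed to between 973190 and 977485 TPM with LPS and to between 958918 and 962737 TPM with LPS + UDCA. Between 11412 and 11517 genes reached 1 TPM with LPS, against 11648 to 11730 with LPS + UDCA. The labels do not say that the libraries of a group came from separate cultures, so the p-values measure the spread between these samples, which may be technical. All 10 macrophage markers of a fixed list were detected, and their summed level was 4258.71 to 4490.77 TPM with LPS and 2090.88 to 2347.74 TPM with LPS + UDCA. Lyz2 was the largest part with LPS, with means of 1988 TPM there and 436 TPM with LPS + UDCA. Of the 10, 2 (Adgre1 and Fcgr1) were called higher and 4 (Cd68, Csf1r, Itgam and Lyz2) lower by the thresholds given below. The shares of all tested genes were 8.71% and 8.44%. By adjusted p alone 4 were higher and 6 lower, beside 40.2% and 32.3%. Of 12 markers of other cell types none exceeded 0.99 TPM, Epcam, Krt18 and Cd3e were listed at 0 in every library, and the summed level of the list was 1.35 to 1.86 TPM with LPS and 0.28 to 0.90 TPM with LPS + UDCA. The part of the macrophage marker change in the results given here was not tested. In bulk RNA, fewer cells with a transcript and less of it per cell cannot be told apart.

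The pi class needed care because it has near-identical copies. Gstp1 (chr19:4035407-4037985, GRCm38, minus strand) and Gstp2 (chr19:4040285-4046023, minus strand) are neighbours, and their annotated coding sequences, read from GENCODE M21 without the stop codon, are 630 bases each. They are identical at 618 bases (98.1%) and differ at 12, and the longest identical run is 300 bases. Gstp3, the next copy on the same chromosome, matches Gstp1 at 72.4% of aligned coding bases. All 12 differing bases fall into 2 stretches, which are printed here because only reads over such bases can tell the copies apart within the coding sequence. Capitals mark the bases that differ. The first stretch is coding bases 1 to 57, spliced from coding exons 1 to 3 between chr19:4037377-4037863 for Gstp1 and between chr19:4041671-4042165 for Gstp2.
Gstp1, coding bases 1 to 57: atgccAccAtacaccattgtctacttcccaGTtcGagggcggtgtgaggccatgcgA
Gstp2, coding bases 1 to 57: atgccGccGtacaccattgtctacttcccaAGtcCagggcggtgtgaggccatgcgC
The second stretch is coding bases 256 to 330, within coding exon 5, at chr19:4036694-4036768 for Gstp1 and chr19:4040988-4041062 for Gstp2.
Gstp1, coding bases 256 to 330: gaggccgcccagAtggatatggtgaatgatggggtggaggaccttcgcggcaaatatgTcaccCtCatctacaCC
Gstp2, coding bases 256 to 330: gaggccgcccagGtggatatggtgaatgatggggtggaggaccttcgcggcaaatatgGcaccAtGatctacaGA
Over the whole annotated transcripts, 38.5% of the 31-base words (every stretch of 31 bases in a row) of Gstp1 and 60.3% of those of Gstp2 also occur in another gene, chiefly in each other. The counting could therefore split reads between the copies, and the level of either one alone is uncertain. For this reason the copies are also given as a sum.

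With LPS + UDCA, the cells carried more RNA of the pi class and of the omega enzyme Gsto1, and less of the membrane enzymes Mgst2 and Mgst3. The sum of the 10 genes was 219.9 ± 13.1 TPM (SD, n = 4) with LPS and 483 ± 42.3 TPM (SD, n = 4) with LPS + UDCA, a ratio of 2.20, with no overlap between the groups. Gsto1 was 4.01-fold higher, the summed Gstp1 and Gstp2 were 2.71-fold higher, and Mgst2 was 2.45-fold lower, all as ratios of mean TPM. Gstm1 had overlapping values in the groups and did not pass the test. Of the 10 genes, 7 reached the mean of 1 TPM needed for testing. They were tested with limma on log2(TPM + 1) over 11796 genes with Benjamini-Hochberg adjustment, and a call needed both a 2-fold change on that scale and an adjusted p under 0.05. Gstp2 and Gsto1 were called higher (2 of 7, where 8.71% of all tested genes were) and Mgst2 lower (1 of 7, against 8.44% of all tested genes). By adjusted p alone, 4 of the 7 were higher, where 40.2% of all tested genes were, and 2 were lower, against 32.3%. For 6 of the 7 genes the LPS and LPS + UDCA values were fully apart, against 66.8% of all tested genes. The median log2 fold change of the 7 was 0.50, against 0.082 over all tested genes.

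**Figure D1:**
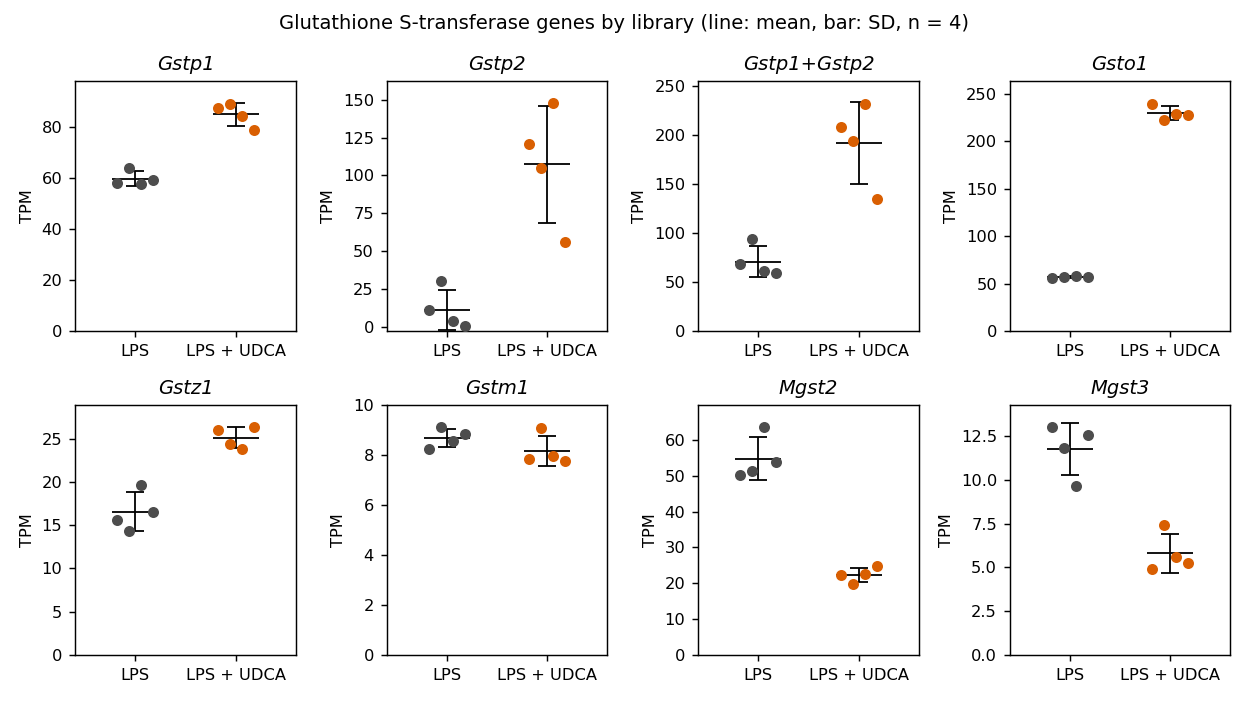
TPM of each tested glutathione S-transferase gene and of summed Gstp1 and Gstp2, with 1 point per library (grey LPS, orange LPS + UDCA), the horizontal line at the mean and bars of 1 SD (n = 4), each panel on its own linear axis. The groups do not overlap for any panel except Gstm1, and Gstp2 is the gene with the widest spread, from 0.67 to 30.07 TPM with LPS and from 55.80 to 147.58 TPM with LPS + UDCA.

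Gstp1, the pi class enzyme that conjugates glutathione and is also known to bind stress kinases, was at 58.23, 63.97, 57.50 and 59.14 TPM with LPS. Its LPS + UDCA values were 87.54, 89.09, 84.43 and 78.73 TPM. Every LPS + UDCA library was above every LPS library. Its mean went from 59.7 ± 2.92 to 84.9 ± 4.58 TPM (SD, n = 4), and its log2 fold change was 0.50 (SE 0.052, 95% interval 0.38 to 0.62, adjusted p = 2.1e-05 by limma with Benjamini-Hochberg adjustment), so it passed the test of a difference without reaching a fold of 2.

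Gstp2, its neighbour of the same class, was at 10.75, 30.07, 3.42 and 0.67 TPM with LPS. With LPS + UDCA it was at 120.74, 104.86, 147.58 and 55.80 TPM. All 4 LPS + UDCA libraries lay above the highest LPS library, but the LPS libraries differed widely among themselves, while Gstp1 hardly varied across the same libraries. The mean went from 11.2 ± 13.3 to 107 ± 38.6 TPM (SD, n = 4), a ratio of 9.55. The log2 fold change was 3.83 with a wide 95% interval of 2.05 to 5.60 (SE 0.78, adjusted p = 0.0017 by limma with Benjamini-Hochberg adjustment). Its size rested in part on single libraries: it was 3.12 without LPS replicate 4 and 4.53 without LPS replicate 2, the lowest and highest of the values with 1 library left out.

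Summed Gstp1 and Gstp2 were less uneven. The sum was at 59.81 to 94.04 TPM with LPS and at 134.53 to 232.01 TPM with LPS + UDCA, with no overlap. The mean went from 70.9 ± 15.9 to 192 ± 41.5 TPM (SD, n = 4). In a fit with 1 summed row in place of both genes, the log2 fold change was 1.42 (SE 0.19, 95% interval 1.00 to 1.84, adjusted p = 1.0e-04 by limma with Benjamini-Hochberg adjustment). The exact permutation test, over 70 arrangements of 8 libraries, gave p = 0.029, which is the smallest 2-sided p it can reach. With Gstp3 and the pseudogene Gstp-ps added, the summed pi class went from 96.3 ± 14.5 to 228 ± 42.8 TPM (SD, n = 4), a log2 fold change of 1.22. Within the pair, Gstp2 held between 1.12% and 32.0% of the sum with LPS and between 41.5% and 63.6% with LPS + UDCA, a division that depends on how the counting treated shared reads.

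Gsto1 (chr19:47854970-47864790, plus strand) encodes the omega class enzyme, which reduces dehydroascorbate and removes glutathione from proteins. It was at 56.11, 57.55, 58.00 and 57.32 TPM with LPS. With LPS + UDCA it was at 239.26, 222.08, 228.99 and 227.67 TPM. The libraries of each group lay close together and far from those of the other group. The mean went from 57.2 ± 0.808 to 229.5 ± 7.16 TPM (SD, n = 4), and the log2 fold change was 1.98 (SE 0.034, 95% interval 1.91 to 2.06, adjusted p = 6.6e-10 by limma with Benjamini-Hochberg adjustment). Of its 31-base words 0% occur in another gene, and Cfap43 overlaps it on the opposite strand.

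Gstz1 (chr12:87147165-87164723, plus strand), the zeta class enzyme that isomerises maleylacetoacetate in tyrosine breakdown, was at 15.61, 14.33, 19.63 and 16.58 TPM with LPS. Under LPS + UDCA the values were 26.03, 24.36, 23.87 and 26.31 TPM. The groups did not overlap. Its mean went from 16.5 ± 2.26 to 25.1 ± 1.21 TPM (SD, n = 4), a ratio of 1.52 and a log2 fold change of 0.58 (SE 0.089, adjusted p = 2.6e-04 by limma with Benjamini-Hochberg adjustment). Pomt2 overlaps it on the opposite strand, 11.3% of its 31-base words occur in other genes, and its reads are uncertain to that extent.

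Gstm1 (chr3:108012255-108017973, minus strand), the mu class member of the set, was at 8.26, 9.11, 8.58 and 8.86 TPM with LPS. In the LPS + UDCA libraries it was at 7.85, 9.07, 7.98 and 7.75 TPM. These ranges overlapped. The log2 fold change was -0.08 with a 95% interval of -0.24 to 0.07 (adjusted p = 0.30 by limma with Benjamini-Hochberg adjustment), and the exact permutation test gave p = 0.17. With median-of-ratios scaling it was at -0.18 with an adjusted p of 0.037 by limma, still far from a fold of 2. Of its words 28.8% occur in other genes, mostly in the pseudogene Gstm2-ps1.

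Mgst2 (chr3:51660360-51682677, plus strand) encodes a membrane enzyme that conjugates glutathione and can also make leukotriene C4. It was at 50.27, 51.30, 63.44 and 53.71 TPM with LPS. With LPS + UDCA it was at 22.31, 19.78, 22.60 and 24.72 TPM. Every LPS + UDCA library was below every LPS library by a wide margin. The mean fell from 54.7 ± 6.02 to 22.4 ± 2.02 TPM (SD, n = 4), and the log2 fold change was -1.25 (SE 0.088, 95% interval -1.45 to -1.05, adjusted p = 1.6e-06 by limma with Benjamini-Hochberg adjustment). Gm37261 overlaps it on the same strand, and other genes share 3.04% of its words.

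Mgst3 (chr1:167371966-167393841, minus strand), a membrane relative with glutathione peroxidase activity, was at 13.00, 11.80, 9.68 and 12.56 TPM with LPS. The LPS + UDCA libraries held 4.89, 7.44, 5.59 and 5.28 TPM. The groups did not overlap. The mean fell from 11.8 ± 1.47 to 5.80 ± 1.13 TPM (SD, n = 4), and the log2 fold change was -0.91 (SE 0.13, 95% interval -1.21 to -0.62, adjusted p = 1.6e-04 by limma with Benjamini-Hochberg adjustment). The ratio of mean TPM was 2.03, while the added pseudocount kept the fold under 2 on the tested scale, and 4 of 16 alternative settings put it past that minimum.

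The remaining members were at or near 0. Gsta4 (chr9:78182774-78209349), an alpha class enzyme that conjugates hydroxynonenal, was at 0.15, 0.16, 0 and 0 TPM with LPS and at 0.07, 0, 0 and 0 TPM with LPS + UDCA. Gstk1 (chr6:42245935-42250447), the kappa class enzyme of mitochondria and peroxisomes, and Mgst1 (chr6:138140316-138156755), a membrane enzyme abundant in liver, were listed at 0 in all 8 libraries. None of these 3 was tested, and no fold is given for them. Whether a listed 0 reflects absent RNA or the counting was not tested.

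The order of the levels in TPM differed between the groups. With LPS, Gstp1, Gsto1 and Mgst2 were at the top with overlapping ranges. Gstz1, Mgst3 and Gstm1 followed in that order, each clear of its neighbour. Gstp2, from 0.67 to 30.07 TPM, overlapped each of Gstz1, Mgst3 and Gstm1. With LPS + UDCA, Gsto1 stood above all others. Gstp2 and Gstp1 came next with overlapping ranges, then Gstz1 and Mgst2, which also overlapped, then Gstm1 and last Mgst3, each clear of its neighbour. Gsto1 made up 24.2% to 27.4% of the summed 10 genes with LPS and 43.9% to 53.4% with LPS + UDCA. Mgst2 and Mgst3 together made up 26.5% to 33.2% of the sum with LPS and 5.35% to 7.04% with LPS + UDCA. Gstp1 made up 26.1% to 28.3% of the sum with LPS and a smaller share, 16.2% to 18.7%, with LPS + UDCA, while its own level was higher.

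**Figure D2:**
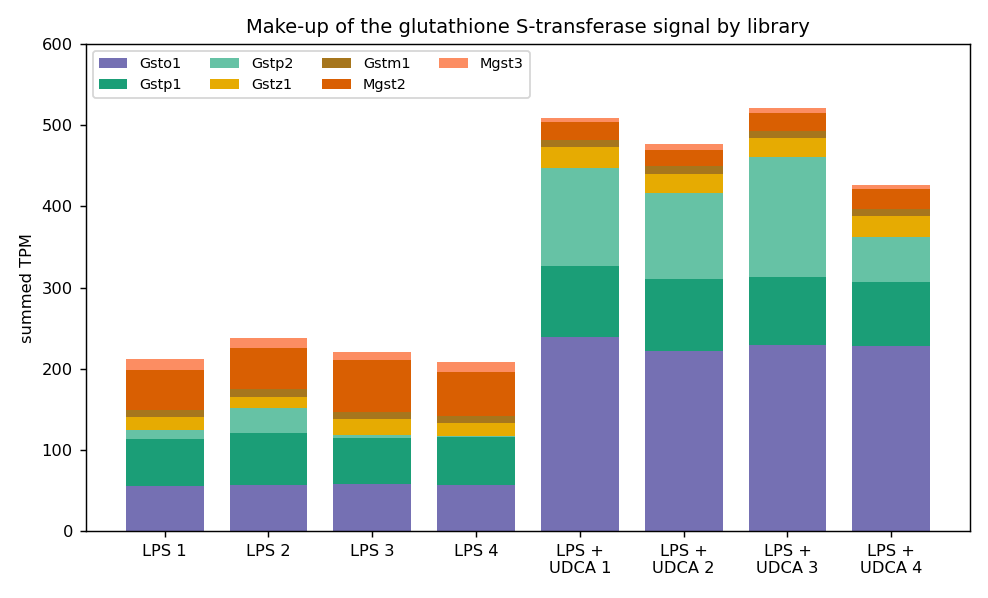
Stacked bars of the summed TPM of the 7 tested glutathione S-transferase genes in each of the 8 libraries, on a linear axis from 0. The sum stands between 208.84 and 238.29 TPM with LPS and between 426.26 and 521.04 TPM with LPS + UDCA for the set of 10 genes, of which the 3 genes not drawn add at most 0.16 TPM, and the Gsto1 and Gstp2 blocks widen while the Mgst2 and Mgst3 blocks narrow.

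The table lists 19 other rows of the family, of which 8 were tested. Hpgds, the sigma class member that makes prostaglandin D2, fell from 11.9 ± 3.89 to 2.22 ± 0.622 TPM (SD, n = 4), a log2 fold change of -1.98 (adjusted p = 4.2e-05 by limma with Benjamini-Hochberg adjustment), and was called lower. The theta class gene Gstt1 fell from 2.43 ± 0.613 to 0.513 ± 0.199 TPM (SD, n = 4), a log2 fold change of -1.17 (adjusted p = 2.2e-04 by limma with Benjamini-Hochberg adjustment), and was also called lower. It reached the mean of 1 TPM for testing through the LPS group alone, and it leaves the test where every library must reach 1 TPM. Its relatives Gstt2 and Gstt3 fell by 0.45 and 0.47 on the log2 scale and Gstcd, which encodes a protein with a glutathione S-transferase-like domain, by 0.52, each past the adjusted p but not the fold.
In the other direction, the mu class gene Gstm4 rose from 3.69 ± 0.655 to 7.75 ± 0.999 TPM (SD, n = 4), a log2 fold change of 0.90 (adjusted p = 1.4e-04 by limma with Benjamini-Hochberg adjustment). Gstp3 rose from 24.7 ± 1.75 to 34.1 ± 3.99 TPM (SD, n = 4), a log2 fold change of 0.45 (adjusted p = 0.0012 by limma with Benjamini-Hochberg adjustment), and shares only 0.534% of its words with other genes. The pseudogene Gstp-ps, with 78.9% of its words shared, passed the filter through the LPS + UDCA group alone, with means of 0.653 TPM under LPS and 1.42 TPM under LPS + UDCA, had a log2 fold change of 0.53 and missed the test (adjusted p = 0.096 by limma with Benjamini-Hochberg adjustment). Summed over all 29 rows of the family, the level went from 285.7 ± 15.3 to 544.4 ± 42.2 TPM (SD, n = 4).

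**Figure D3:**
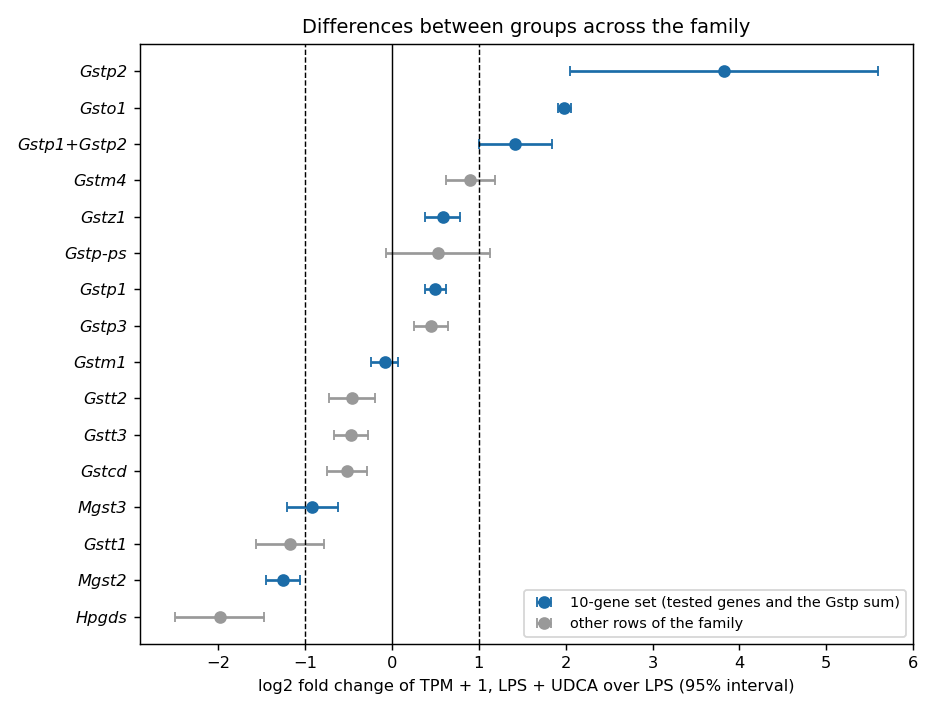
Log2 fold change of TPM + 1 (LPS + UDCA over LPS) with its 95% interval from limma for the tested members of the set and summed Gstp1 and Gstp2 (blue) and for the other tested rows of the family (grey), dashed lines marking a fold of 2. Gstp2 lies highest at 3.83 with the widest interval, Gsto1 follows at 1.98 with the narrowest, and Hpgds lies lowest at -1.98.

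The upstream sequences of Gstp1 and Gstp2 were compared because both had higher values with LPS + UDCA. RefSeq promoter entries (GRCm38.p6) were found for 9 of the 10 members, and the 250 bases before each start site were searched on both strands. The letters TGANTCA, bound by AP-1 factors, were present in 3 members, Gstp1, Gstp2 and Mgst2, and in 6.75% of 32851 promoters. Windows of 100 bases around them are printed, 5′ to 3′ on the strand of the gene, with those letters in capitals. The Gstp1 window is chr19:4037962-4038061 on the minus strand, from 149 to 50 bases upstream of the start site, of which 24 bases lie in an annotated exon. The Gstp2 window is chr19:4042286-4042385 on the minus strand, from 164 to 65 bases upstream. It lies inside the GENCODE span of Gstp2 (chr19:4040285-4046023), with 0 bases in an annotated exon. The Mgst2 window is chr3:51661052-51661151 on the plus strand, from 127 to 28 bases upstream. This window too lies inside the GENCODE span of its gene (chr3:51660360-51682677), with 0 bases in an annotated exon.
Gstp1: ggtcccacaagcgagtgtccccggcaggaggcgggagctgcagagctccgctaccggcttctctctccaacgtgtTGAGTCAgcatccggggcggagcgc
Gstp2: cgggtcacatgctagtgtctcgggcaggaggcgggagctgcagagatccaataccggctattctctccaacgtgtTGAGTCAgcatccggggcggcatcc
Mgst2: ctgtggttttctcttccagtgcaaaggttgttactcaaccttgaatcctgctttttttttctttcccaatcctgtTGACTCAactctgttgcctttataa
Upstream, Gstp1 and Gstp2 are identical at 207 of 265 aligned columns (78.1%), against 98.1% in their coding sequence. Gstp3, the pi gene outside the set that was also higher, had 0 matches to TGANTCA upstream. It was identical to Gstp1 at 39.5% of aligned upstream columns. The letters TGACNNNGC, a form of the core of the antioxidant response element bound by NRF2, were present in 10.2% of all promoters. Within the set they occurred only in Mgst1, which was listed at 0. Other forms of the element were not searched. The Gstp1 and Gstp2 windows hold TGAGTCAGC, with G where the searched letters have C. A match is a description of the letters in these windows, and Mgst2, which was lower with LPS + UDCA, holds the AP-1 letters as Gstp1 and Gstp2 do.

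Pathway genes were counted in 8 lists that hold 93 listed genes, 67 of them tested. One of these lists holds other transferases, with 7 tested genes and 2 of the lower calls, the Hpgds and Gstt1 described above. Of that pair, Gstt1 passed the filter through the LPS group alone. Of the 67 tested genes, 11 were called higher and 9 lower, beside 8.71% and 8.44% of all tested genes. Where every library had to reach 1 TPM, which removes Gstt1, the counts were 11 higher and 8 lower, beside 7.35% and 7.59%. With median-of-ratios scaling in place of TPM as deposited, the counts were 6 higher and 10 lower, beside 6.85% and 9.92% of all genes tested at that scaling, and the median log2 fold change of all tested genes moved from 0.082 to -0.018.

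Glutathione is made by glutamate-cysteine ligase, whose subunits are Gclc (catalytic) and Gclm (modifier), followed by glutathione synthetase, Gss. Both ligase subunits were called higher. Gclm rose from 91.5 ± 3.32 to 366 ± 18.7 TPM (SD, n = 4), a log2 fold change of 1.99 (adjusted p = 1.9e-09 by limma with Benjamini-Hochberg adjustment). Gclc rose from 14.0 ± 0.918 to 35.0 ± 2.67 TPM (SD, n = 4), a log2 fold change of 1.26. Gss, at 36.4 ± 2.23 and 38.6 ± 2.03 TPM, and the cystine transporter Slc7a11, at 53.9 ± 3.29 and 55.3 ± 0.219 TPM (SD, n = 4), did not pass the test (adjusted p = 0.22 and 0.48 by limma with Benjamini-Hochberg adjustment). Gsr, which reduces oxidised glutathione, rose by a log2 fold change of 0.96 (adjusted p = 3.5e-06 by limma with Benjamini-Hochberg adjustment), just short of the fold minimum. The aminopeptidase Anpep, which cleaves dipeptides from glutathione breakdown, was called lower at -2.06 on the log2 scale. Of the 15 tested genes of synthesis and recycling, 6 were higher, 6 lower and 3 not past the adjusted p, shares close to the 40.2% and 32.3% of all tested genes, with a median of 0.04.

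Other users of glutathione moved in both directions. Among 11 tested genes, mainly peroxidases, glutaredoxins and glyoxalases, 1 was called higher and 3 lower, beside 8.71% and 8.44% of all tested genes. By adjusted p alone 3 were higher and 6 lower (40.2% and 32.3% of all tested genes), with a median of -0.20. Glrx, glutaredoxin, which removes glutathione from proteins as Gsto1 does, fell from 442.4 ± 15.0 to 60.7 ± 5.59 TPM (SD, n = 4), a log2 fold change of -2.85 (adjusted p = 1.7e-09 by limma with Benjamini-Hochberg adjustment). Esd was the gene called higher, at 1.05, a call lost with median-of-ratios scaling at 0.95. It encodes S-formylglutathione hydrolase, which is not a peroxidase, glutaredoxin or glyoxalase. The 3 tested membrane relatives that act in lipid mediator synthesis were all lower by adjusted p, where 32.3% of all tested genes were. Among the 3, 1 was called lower, beside 8.44% of all tested genes. Of these, Alox5ap, which presents arachidonic acid for leukotriene synthesis, fell from 175.1 ± 5.35 to 62.5 ± 3.47 TPM (SD, n = 4), a log2 fold change of -1.47 (adjusted p = 1.4e-08 by limma with Benjamini-Hochberg adjustment), and 9.45% of its words are shared with the antisense gene Gm19719.

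Conjugate export and mercapturate steps gave 1 call in each direction among 8 tested genes, beside 8.71% higher and 8.44% lower of all tested genes. By adjusted p alone 4 were higher and 2 lower, not far from the 40.2% and 32.3% of all tested genes. The median was 0.41. Abcc3, 1 of the 8, passed the filter through the LPS + UDCA group alone and was not called. Abcc1, a pump for glutathione conjugates and leukotriene C4, rose from 60.2 ± 3.31 to 145.9 ± 3.88 TPM (SD, n = 4), a log2 fold change of 1.26 (adjusted p = 3.2e-08 by limma with Benjamini-Hochberg adjustment). Acy1, which deacetylates mercapturates, fell from 64.0 ± 2.98 to 25.3 ± 1.16 TPM (SD, n = 4), a log2 fold change of -1.31. In tyrosine breakdown, the pathway of Gstz1, 1 of 4 genes was tested. It was Fah, the enzyme after Gstz1, which was called lower at -1.05 while Gstz1 was higher, and the call was lost without LPS + UDCA replicate 1, at -0.98, and without LPS + UDCA replicate 4, at -0.97.

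NRF2, encoded by Nfe2l2, is the transcription factor best known for activating transferase and glutathione synthesis genes, and Keap1 holds it back. Of 10 tested genes of NRF2 and its partners, 5 were called higher and 0 lower in the limma fit. The shares of all tested genes were 8.71% and 8.44%. With median-of-ratios scaling 2 were called higher, Bach1 and Sqstm1, beside 6.85% of all genes tested at that scaling. Nfe2l2, Mafg and Nfe2l1 fell short of the fold there. By adjusted p alone, 9 were higher and 1 lower, where 40.2% and 32.3% of all tested genes were, with a median of 0.91. Nfe2l2 rose from 20.75 ± 1.38 to 43.6 ± 3.13 TPM (SD, n = 4), a log2 fold change of 1.04 (adjusted p = 9.8e-07 by limma with Benjamini-Hochberg adjustment), a call lost with median-of-ratios scaling at 0.93 and without LPS replicate 2 at 0.999. Keap1 rose by 0.78, short of the fold minimum. The highest was Bach1, a repressor of NRF2 targets, which went from 1.91 ± 0.177 to 10.8 ± 1.27 TPM (SD, n = 4), a log2 fold change of 2.01 (adjusted p = 1.6e-07 by limma with Benjamini-Hochberg adjustment). Of 12 tested genes of NADPH supply and NRF2-regulated reductases, 2 (Srxn1 and Me1) were called higher and 0 lower in the limma fit. These counts stand beside 8.71% and 8.44% of all tested genes. With median-of-ratios scaling 1 was called higher, beside 6.85% of all genes tested at that scaling, and Me1 was at 0.92. By adjusted p alone 5 were higher and 4 lower, near the 40.2% and 32.3% of all tested genes, with a median of -0.05. The highest of them was Srxn1, sulfiredoxin, which rose from 44.8 ± 1.35 to 254.1 ± 14.8 TPM (SD, n = 4), a log2 fold change of 2.48.

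**Figure D4:**
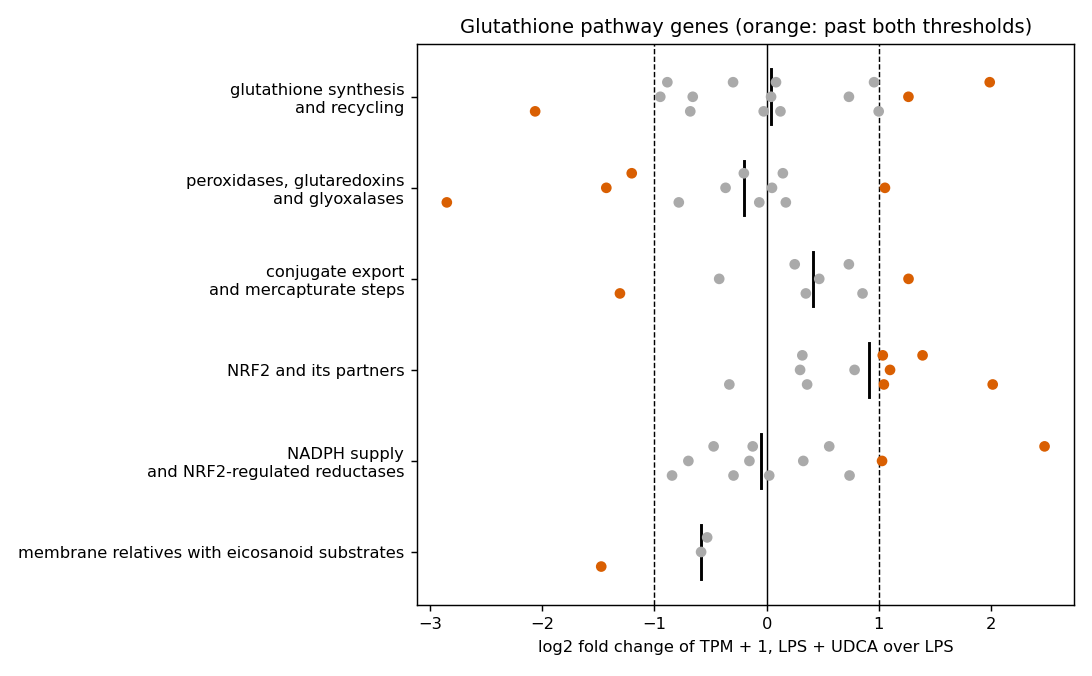
Log2 fold change of TPM + 1 (LPS + UDCA over LPS) of each tested gene in 6 lists around glutathione, 1 point per gene, orange where past both the fold of 2 (dashed lines) and the adjusted p, with the list median as a black bar. The medians run from -0.58 for the membrane relatives with eicosanoid substrates to 0.91 for NRF2 and its partners, and points lie on both sides of 0 in every list except the membrane relatives.

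Over the 8 libraries and the 7070 other genes that averaged 10 TPM or more, the pattern most like that of summed Gstp1 and Gstp2 belonged to Eif3d, Ubfd1 and Ppip5k1. Their Pearson coefficients on log2(TPM + 1) were 0.993, 0.989 and 0.987 (n = 8 libraries), given as a description. A gene that is higher with LPS + UDCA gains on this measure from the group difference alone, and 975 of the 7070 genes (13.8%) reached 0.9.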

How the data were processed

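RNA of J774A.1 cells was sequenced in 8 libraries, 4 per group. The authors deposited 1 table of TPM per gene, kept to 2 decimals, with unfiltered genes at 0. The unit was inferred from column sums a little under 1000000. The submitters' processing notes name Bowtie 0.12.2 and mm10/GRCm38, and the counting program, its handling of strand and of reads shared by copies are not given in the sources used here. The thresholds come from the methods of the study. From these values, log2(TPM + 1) was fitted, for genes averaging 1 TPM or more, in limma 3.58.1 (R 4.3.3; lmFit, eBayes with a trend), with Benjamini-Hochberg adjustment over all of them. Fold changes are on the log2(TPM + 1) scale, where the added 1 shrinks them for low genes. They compare means of logs and can differ from ratios of mean TPM, as for Gstp2, at 14.2 against 9.55. Summed Gstp1 and Gstp2 replaced both rows in a refit. Single values were also compared by 2-sided exact permutation tests. The procedure was tested on simulated data.

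The members and gene lists were chosen with earlier results of these data known. Named were all members, other family rows averaging 1 TPM or more, the highest and lowest called gene of each list, Gclc, Gclm, Gss, Gsr, Slc7a11, Nfe2l2 and Keap1, and the 3 genes most like the summed pair. The markers listed at 0, the called macrophage markers, Abcc3, Mafg, Nfe2l1, Sqstm1 and Me1 were named after their values were seen. Positions and coding sequences are from GENCODE M21, promoters from RefSeq. Tables and figures were made with pandas 2.3.3 and matplotlib 3.10.9 in Python 3.11.15. Alternatives covered the scaling, the filter, the pseudocount, the variance trend, the replicate block, each library left out and the fold minimum.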

Additional observations from a re-analysis of the deposited data

Results flagged for a closer look

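One value stood far from the others of its group. Gstm4, a mu class gene outside the set of 10, was highest in LPS + UDCA replicate 4 at 9.24 TPM, and its gap to the next library was 0.895 of the range of the group, above the 95% critical value of Dixon's test for 4 samples. The other LPS + UDCA libraries were at 7.37, 7.15 and 7.23 TPM. In all, 34 groups were examined, of which chance would flag about 1.7.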

How the results depend on the processing

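Summed Gstp1 and Gstp2 kept its direction and its call under all 17 alternatives, from 1.22 (all Gstp rows summed) to 1.58 on the log2 scale, with adjusted p of at most 5.9e-04 by limma, and from 1.32 to 1.58 with each library left out. No value of a member changed sign under the alternatives run. Of the 7 tested members, 2 were called higher and 1 lower, beside 8.71% and 8.44% of all tested genes. The number called higher was 4 with no fold minimum, beside 40.2% of all tested genes. It was 1 where every library had to reach 1 TPM, beside 7.35%, and that filter removes Gstp2 from the test. The number called lower was 2 with no fold minimum, beside 32.3% of all tested genes. It was also 2 with median-of-ratios scaling (9.92% of all, with 2 members higher), with quantile normalization (9.22%) and with a pseudocount of 0.1 TPM (10.4%). It was 1 to 2 with a library left out, beside 8.17% to 8.75%. The added gene is Mgst3, at -1.01, -1.01 and -1.02 under those last 3 settings and at -1.02 without LPS + UDCA replicate 2. Gstm4 passed the fold minimum with the pseudocount of 0.1 TPM, at 1.06. Of the 67 tested pathway genes, 29 were higher and 28 lower with no fold minimum, beside 40.2% and 32.3% of all tested genes. With median-of-ratios scaling 6 were called higher, beside 6.85% of all genes tested at that scaling. There Esd, Mafg, Me1, Nfe2l1 and Nfe2l2 lost the call.

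Same-numbered libraries of the groups had deviations with correlations of -0.035 to 0.15 (mean 0.088), against -0.14 to 0.16 (mean -0.029) for other numbers. The labels name no shared culture or day, and not every same-numbered pair was over 0.1, so the numbers were not taken as pairs, although 5 of 8 libraries correlated best with their own number, a hint from the data and not from the design. With the replicate block, summed Gstp1 and Gstp2 had an adjusted p of 2.4e-04 by limma at the same log2 fold change of 1.42, 2 members were called higher and 1 lower, and over all genes 1034 were called higher and 1000 lower, against 1028 and 995 without it. TPM keeps no depth, so counting error could not be given. Gstp1 and Gstp2 cannot be separated beyond what the counting made of their shared reads.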
